A study of Mus musculus with 4 samples.

Results

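The genes of cellular iron uptake, storage, export and sensing were examined in activated mouse T cells: Tfrc, Steap3, Slc11a2 and Slc25a37 for uptake and transport, Fth1, Ftl1 and Ncoa4 for storage, Slc40a1 for export, and Ireb2 and Aco1 for control. They were chosen by name for these roles, not by a measured value, but with earlier results of these data known. They make up 10 of the 50600 genes in the files. The RNA came from primary T cells (mouse strain C57BL/6NJ), sequenced as 4 libraries of a single group that are numbered as biological replicates 1 to 4. The file headers describe the cells as Th0 (helper T cells activated without cytokines that steer them to a lineage), activated, at 16 h, and a protocol for differentiating CD4+ T cells is linked in the labels. All 4 share 1 donor identifier, it is not stated whether they came from separate animals, and age and sex are not given. There was no second condition, so the comparisons are between genes within a library and between libraries. P-values for the spread between libraries concern only these samples, and that spread may be technical. Those for pairs of genes concern whether a difference within a library held over these same 4 libraries.

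Mammalian cells take up most of their iron bound to transferrin, through the transferrin receptor, into endosomes, where the iron is reduced and passed across the membrane. Iron that is not used at once for heme or iron-sulfur clusters is held in ferritin, a hollow shell of heavy and light chains, and ferroportin is the exporter. When iron is scarce, the iron regulatory proteins bind hairpins called iron-responsive elements: at the 5′ end of a messenger RNA they block its translation, and in the 3′ untranslated region (UTR) of the transferrin receptor they protect the RNA from decay. Dividing T cells are known for a high display of the transferrin receptor.

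The elements are shown first because the members in which this search found them sat at both ends of the order of RNA levels. Slc11a2, with a known element that the search did not allow, lay between them at a mean of 24.3 TPM. Each transcript sequence (GENCODE M21, GRCm38/mm10) was searched on its own strand for the letters C, 5 bases, CAGTGN, 5 bases, in which both runs of 5 bases pair with each other by Watson-Crick or G-T pairs. The loop CAGTGN is in capitals, and each sequence is given 5′ to 3′. The 5′ UTRs of the ferritin heavy and light chain and of ferroportin each held 1 match, at chr19:9982732-9982760 on the plus strand for Fth1, chr7:45459779-45459807 on the minus strand for Ftl1 and chr1:45925465-45925493 on the minus strand for Slc40a1.
Fth1: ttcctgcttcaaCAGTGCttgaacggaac
Ftl1: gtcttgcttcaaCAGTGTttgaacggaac
Slc40a1: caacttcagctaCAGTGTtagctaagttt
The ferritin pair matched at 26 of 29 bases. These matches were in 4 of 5 protein-coding transcripts of Fth1, 1 of 2 of Ftl1 and 1 of 4 of Slc40a1. The 3′ UTR of Tfrc, on the plus strand of chromosome 16, held 4 matches, lettered here a to d in their order along the transcript, at chr16:32631219-32631247, chr16:32631598-32631626, chr16:32631663-32631691 and chr16:32631710-32631738.
Tfrc a: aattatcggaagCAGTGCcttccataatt
Tfrc b: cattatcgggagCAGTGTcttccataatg
Tfrc c: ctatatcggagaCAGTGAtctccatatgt
Tfrc d: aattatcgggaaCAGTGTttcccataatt
Any pair of the Tfrc elements matched at 18 to 25 of 29 bases. All 4 were in the same 1 of 3 protein-coding transcripts of Tfrc. Over all genes with such a region, the pattern was present in the 5′ UTR of 31 of 20916 (0.148%) and in the 3′ UTR of 129 of 21039 (0.613%). The loop letters alone were in 33.65% of 5′ UTRs and 69.13% of 3′ UTRs. Slc11a2, Slc25a37, Steap3, Ncoa4, Ireb2 and Aco1 had no match in a UTR. An element of Slc11a2 that is known from other work has an extra unpaired base in its stem, and this search did not allow one. A match is a run of letters and says nothing about binding in these cells.

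Depth was 53619400, 48931322, 63313389 and 46192242 read pairs counted on genes in replicates 1 to 4, and the 10 genes took 0.182, 0.180, 0.196 and 0.189% of them. Levels are in TPM, the count of a gene per exonic base as a share of the same sum over all genes, on a per-million scale. They are given either for replicates 1, 2, 3 and 4 in turn or as mean ± SD (n = 4 libraries). All 7 T cell markers, such as Cd3e and Cd4, and all 5 activation markers reached 1 TPM in every library, with sums of 4944 to 5103 TPM and 3231 to 3325 TPM. None of the 11 erythroid markers did, with sums of 0.213 to 1.07 TPM and 7 of the 11 at 0, and none of 5 B cell markers did, with sums of 2.45 to 9.36 TPM. Of the CD8 markers, Cd8b1 was present at 53.3 to 61.1 TPM and Cd8a at 0.225 to 1.06 TPM. In bulk RNA, fewer cells of a type and less RNA per cell cannot be told apart.

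Of the 10 genes, 8 reached at least 1 TPM in every library, against 45.2% of the 21751 nuclear protein-coding genes. The levels ran, from high to low, Fth1, Ftl1, Tfrc, Aco1, Slc25a37, Ireb2, Slc11a2, Ncoa4, Steap3 and Slc40a1. That order held in 4 of 4 libraries. Among neighbours in it, only the ranges of Ftl1 and Tfrc overlapped across libraries, since the highest Tfrc value lay above the lowest Ftl1 value. The 4 members with a match of this search in a UTR were the 3 most abundant and the one at 0, while the 6 without a match had means of 1.48 to 64.4 TPM. Slc11a2, whose known element the search did not allow, is counted among the 6. A link between elements and RNA levels was not tested.

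**Figure D1:**
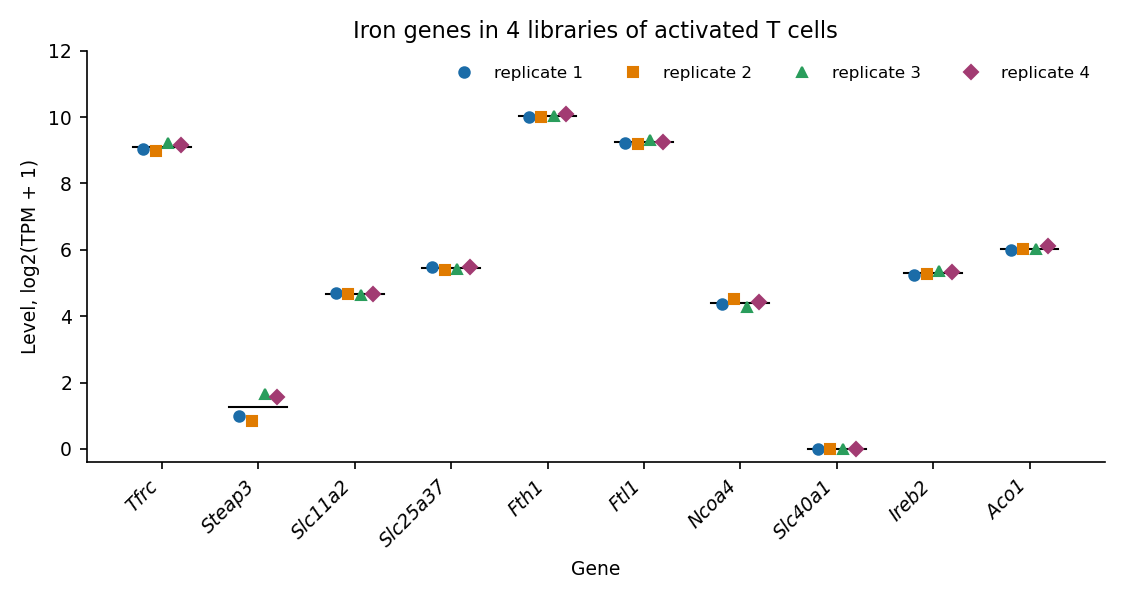
Level of each of the 10 genes in each library (points, log2(TPM + 1) axis), ordered by role, with the mean over the 4 libraries as a bar. Fth1, Ftl1 and Tfrc lie at 505 TPM or more in every library, Steap3 lies near 1 to 2 TPM with visible scatter, and Slc40a1 is at 0 throughout.

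Tfrc, the transferrin receptor that carries iron-loaded transferrin into the cell (ENSMUSG00000022797.15, mm10 chr16:32608920-32632794, plus strand), was measured at 524, 505, 593 and 574 TPM. Replicates 3 and 4 lay above replicates 1 and 2. Its mean of 549 ± 41.2 TPM was above that of 98.9% of nuclear protein-coding genes. The counts behind it were 52211, 46183, 69108 and 47645 read pairs. The 95% Wilson interval of its share was 0.108 to 0.110% of read pairs in replicate 3 and 0.0935 to 0.0952% in replicate 2, so counting error, which is all these intervals cover, was smaller than the distance between those libraries. The SD of log2 CPM was 0.09 and the spread did not pass the edgeR test (adjusted p = 0.962). The related receptor Tfr2, which is known as an iron sensor of liver and red cell precursors, averaged 0.128 TPM. In log2(TPM + 1), Tfrc exceeded Tfr2 by 8.93 ± 0.17, in 4 of 4 libraries, but with Tfr2 near 0 the size depends on the pseudocount (6.75 to 11.38 over the alternatives).

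Steap3, the endosomal reductase that turns ferric into ferrous iron (ENSMUSG00000026389.16, chr1:120190757-120272705, minus strand), was the scarcest of the members with any reads. It had 0.999, 0.805, 2.17 and 1.95 TPM, from 92, 68, 234 and 150 read pairs. Replicates 3 and 4 were high and replicates 1 and 2 low, with the highest level 2.70 times the lowest. Its SD of log2 CPM was 0.68, larger than that of 98.4% of the 752 genes of like abundance (within 0.5 log2 CPM). The edgeR test gave an adjusted p of 0.749 (0.0145 without Benjamini-Hochberg adjustment over all tested genes), so the spread did not pass.

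Of 10 macrophage markers, only Cd68, a lysosomal protein abundant in macrophages, reached 1 TPM in every library. Its values, named here after they were seen, were 3.75, 1.78, 6.12 and 4.68 TPM, so replicate 2 was lowest and replicate 3 highest, as for Steap3. The other markers did not follow that order. Adgre1 had 0, 0.167, 0.0490 and 0.0459 TPM, Lyz2 0.330 TPM in replicate 1 and 0 elsewhere, and Cd163, Csf1r and Vcam1 no more than 0.0762 TPM in any library, while Spic, Mrc1, C1qa and C1qb were at 0 in all 4. The summed level of the list was 4.12, 1.95, 6.17 and 4.82 TPM, of which Cd68 alone made up 90.8 to 99.2%. Hmox1, the heme oxygenase that frees iron from heme, had 4.25, 2.59, 6.45 and 5.49 TPM with an adjusted p of 0.95 in edgeR, and was also named after its values were seen. The part of these genes in the spread of Steap3 was not tested. Steap4, a paralogue, had 2 read pairs in replicate 1 and 0 in the others. In log2(TPM + 1), Steap3 exceeded it by 1.26 ± 0.42 in 4 of 4 libraries, and the size of that difference depends on the pseudocount.

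Slc11a2, the divalent metal transporter DMT1 that moves ferrous iron out of the endosome (ENSMUSG00000023030.16, chr15:100387898-100425072, minus strand), had 24.7, 24.2, 23.8 and 24.3 TPM. The libraries were nearly level, with an SD of log2 CPM of 0.03. Tfrc was 22.6 ± 1.92 times as abundant as Slc11a2 per length, a difference of 4.44 ± 0.12 on the log2(TPM + 1) scale.

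Slc25a37, mitoferrin 1, which carries iron into mitochondria (ENSMUSG00000034248.7, chr14:69241848-69285112, minus strand), had 43.3, 41.2, 41.8 and 43.4 TPM. Slc25a28, mitoferrin 2, averaged 47.3 ± 2.67 TPM. Slc25a37 stood at 0.899 ± 0.0461 of the level of Slc25a28, a log2(TPM + 1) difference of -0.15 ± 0.07, and was the lower in 4 of 4 libraries. Mitoferrin 1 is known as the form of developing red cells and mitoferrin 2 as the general form.

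Fth1, the ferritin heavy chain, whose ferroxidase site oxidizes iron for storage (ENSMUSG00000024661.6, chr19:9982703-9985092, plus strand), had 1021, 1023, 1039 and 1083 TPM. It was the most abundant member, at rank 104 of the nuclear protein-coding genes, and in log2 CPM had the smallest SD of the members, 0.02, while in TPM the coefficient of variation was smaller for Slc11a2 (1.54%) and Slc25a37 (2.56%) than for Fth1 (2.78%). Ftl1, the light chain, which aids the laying down of the iron core (ENSMUSG00000050708.16, chr7:45457944-45459884, minus strand), had 594, 588, 629 and 608 TPM and rank 218. Replicate 3 was its highest library.

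In TPM, the heavy chain was the more abundant ferritin RNA in 4 of 4 libraries, at 1.72 ± 0.0546 times the light chain, and made up 63.3 ± 0.743% of their summed TPM. The counts were closer, at 14241, 13107, 16965 and 12597 read pairs for Fth1 and 12816, 11644, 15900 and 10942 for Ftl1. Most of the ratio came from the annotated exonic lengths, 866 bases for Fth1 and 1340 for Ftl1. Other lengths were not tried, and the ratio of Tfrc to Fth1 also rests on such lengths. On the log2(TPM + 1) scale Fth1 exceeded Ftl1 by 0.78 ± 0.05, and Tfrc differed from Fth1 by -0.93 ± 0.09, so that the receptor RNA stood at 0.527 ± 0.0327 of the heavy chain. Both ferritin genes have near-identical copies elsewhere in the annotation, Ftl1 far more than Fth1. If reads that match several places were not counted, Ftl1 would be understated the more, and the order and share of the chains could turn, which was not tested. Of the 50-base windows of Ftl1 transcripts, 58.4% also occurred in transcripts of other genes, 17 in number, and 1.59% of those of Fth1. Its 3 copies annotated as such, Ftl1-ps1, Ftl1-ps2 and Ftl2-ps, had 7, 9, 12 and 15 read pairs in sum, against at least 10942 for Ftl1, but the counting of reads that match several places is not described in the headers or labels. Ftl1 also overlapped the annotated gene Gm22133 on the same strand over 109 of its 1340 exonic bases.

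Ncoa4, the receptor that delivers ferritin to lysosomes to release its iron (ENSMUSG00000056234.14, chr14:32159865-32179855, plus strand), had 19.8, 22.0, 18.5 and 20.5 TPM. Replicate 2 was highest and replicate 3 lowest, with an SD of log2 CPM of 0.11 and an edgeR adjusted p of 0.996. Ncoa4 lay below Fth1 by a log2(TPM + 1) difference of -5.62 ± 0.11 in 4 of 4 libraries. Of its 50-base windows, 17.9% were shared, all with the processed pseudogene Gm6768, which had 42, 33, 28 and 31 read pairs. Slc25a37 and Slc11a2 shared 6.99% and 4.27% of their windows, Fth1 and Ireb2 fewer, and Tfrc, Steap3, Slc40a1 and Aco1 none.

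Slc40a1, ferroportin, the exporter of cellular iron (ENSMUSG00000025993.10, chr1:45908068-45926523, minus strand), had 0 read pairs in every library. A count of 0 allows up to 3 counts, which is 0.0177 to 0.0248 TPM at the depth of these libraries, so ferroportin RNA was not detectable above that limit. Against that limit of 3 counts per library, Tfrc was at least 22401-fold higher in the library with the smallest ratio.

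Aco1, whose protein is a cytosolic aconitase when it holds an iron-sulfur cluster and the iron regulatory protein IRP1 when it does not (ENSMUSG00000028405.9, chr4:40143081-40198338, plus strand), had 62.1, 63.5, 64.0 and 67.8 TPM. Ireb2, which encodes IRP2, a protein broken down when iron is plentiful (ENSMUSG00000032293.8, chr9:54863789-54912530, plus strand), had 36.7, 37.6, 39.7 and 39.4 TPM. Both were nearly level across libraries, with SDs of log2 CPM of 0.03 for Aco1 and 0.04 for Ireb2. Ireb2 stood at 0.596 ± 0.0170 of the level of Aco1, a log2(TPM + 1) difference of -0.73 ± 0.04, and was the lower in 4 of 4 libraries. Fbxl5, the iron-sensing part of the ligase that marks IRP2 for breakdown, averaged 13.5 ± 0.543 TPM and was named after its value was seen.

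Of the 11 pairs compared within libraries 10 are reported here, and each of these differed in the same direction in 4 of 4 libraries. Each gave p = 0.13 in the exact two-sided sign-flip permutation test, and 0.13 after Benjamini-Hochberg adjustment over all 11. That is the smallest p that 4 libraries allow, so none could pass 0.05.

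**Figure D2:**
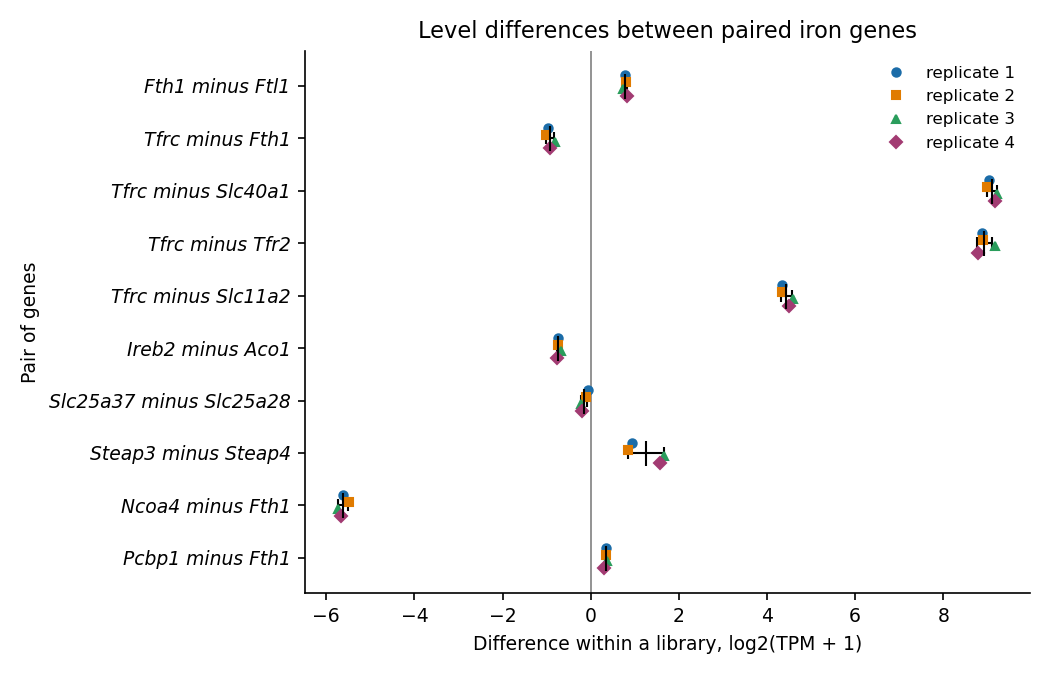
Differences in level within each library for 10 pairs (points are libraries, the upright bar is their mean and the whiskers are 1 SD), as first gene minus second gene on the log2(TPM + 1) scale, with a line at 0. In every pair all 4 libraries lie on the same side of 0, from 9.10 for Tfrc minus Slc40a1 (a size set by the pseudocount, since Slc40a1 is at 0) to -5.62 for Ncoa4 minus Fth1.

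Across libraries, 9 members had enough counts for the edgeR spread test, which asks whether a gene varied more between the 4 libraries than genes of like abundance. None passed at an adjusted p of 0.05 (0 of 9), where 0.228% of all 12285 tested genes did. Adjusted p ran from 0.749 for Steap3 to 0.998 for Fth1. Without adjustment 1 of 9 was under 0.05 (Steap3), against 5.42% of all tested genes, and DESeq2 marked 0 of 9 as dispersion outliers, against 0.403% of all genes it fitted. The median SD of log2 CPM was 0.04 over the 9 members and 0.10 over all tested genes, and 6 of the 9 lay below the median of genes of like abundance. No library was highest for most members: in log2 CPM, replicates 1 to 4 were highest for 2, 1, 4 and 2 of the 9.

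**Figure D3:**
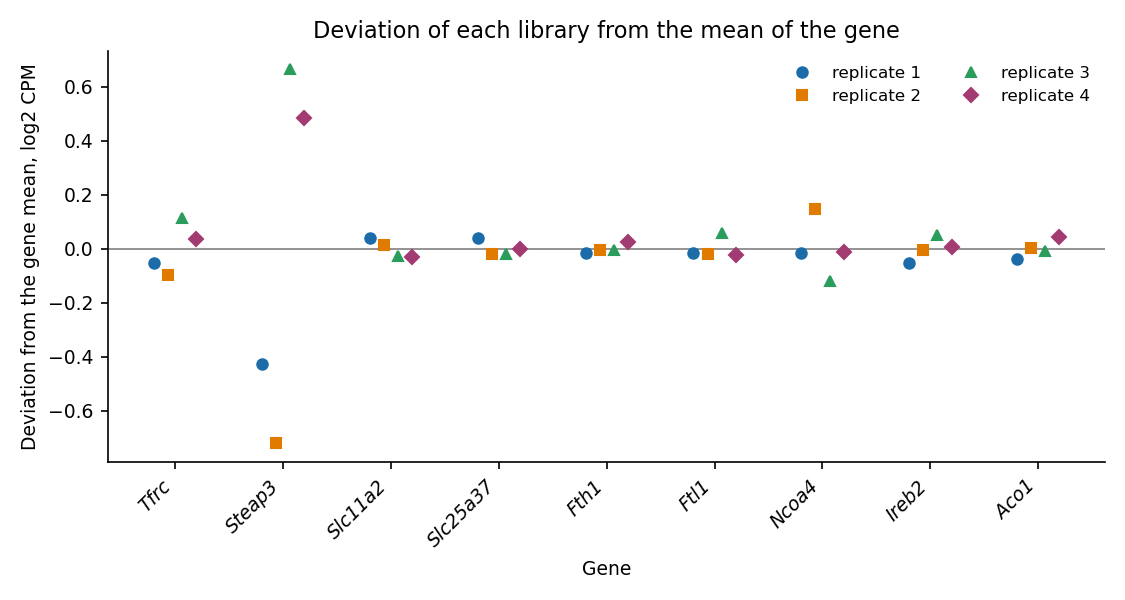
Deviation of each library from the mean of its gene, in log2 CPM, for the 9 members that were tested, with 1 point per library and a line at 0. Steap3 spans from -0.72 in replicate 2 to 0.66 in replicate 3, while Tfrc and Ncoa4 stay within 0.15 and the other 6 within 0.06 of the mean.

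**Figure D4:**
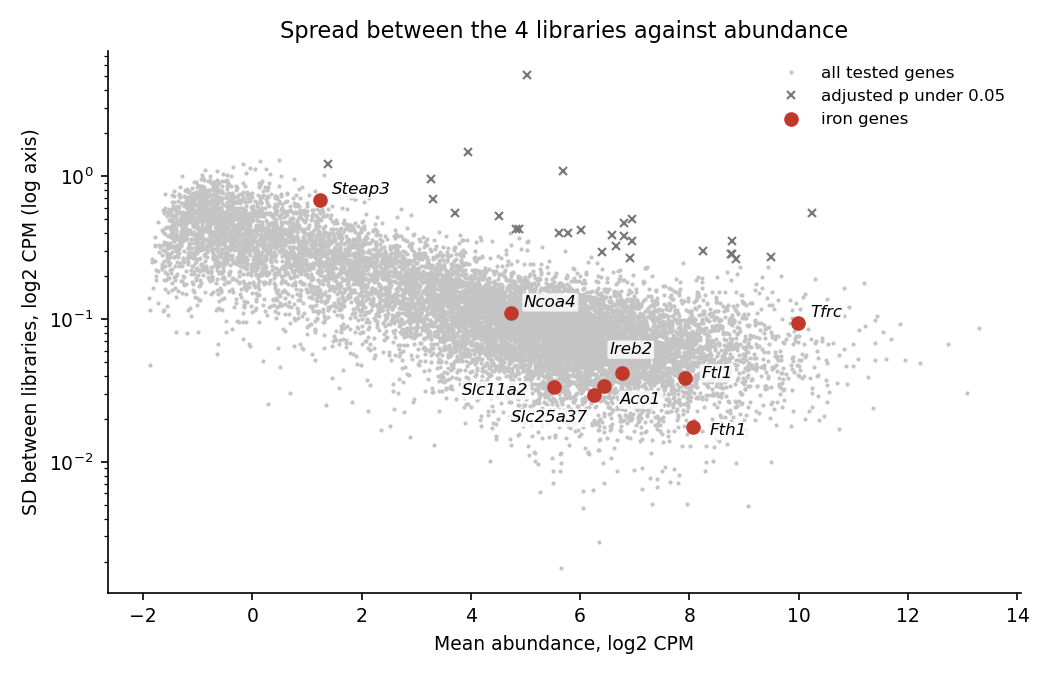
SD between the 4 libraries (log2 CPM, log axis) against mean abundance (log2 CPM) for all 12285 tested genes (grey), genes past the adjusted threshold (crosses) and the 9 members (red). Steap3 sits near the top of genes of its abundance and Fth1 near the bottom, and no member is marked by a cross.

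The wider pathway was read from 6 lists, with 79 of 80 listed genes matched. Of these, 54 reached 1 TPM in every library, against 45.2% of nuclear protein-coding genes, and 13 were at 0 in all 4. The counts of detected genes in each list below stand against the same 45.2%. The share of all genes at 0 is not given here. In the edgeR spread test 0 of 59 tested genes passed after adjustment (0.228% of all tested genes did) and 5 of 59 were under 0.05 without it (5.42% of all). With no count filter 2 of 66 passed, Herc2 and Uros, a heme synthesis enzyme. The share of all genes that passed without the filter is not given here, so this count cannot be set against it. DESeq2 marked 1 of 66 as a dispersion outlier, Herc2 (0.403% of all). Herc2 and Uros were named after their values were seen. Herc2, a ubiquitin ligase, had 30.0, 30.9, 25.7 and 38.9 TPM with an edgeR adjusted p of 0.066, highest in replicate 4 and lowest in replicate 3.

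Of the other uptake and transport genes, 5 of 16 were detected. The most abundant were Slc25a28, then the zinc and iron importer Slc39a14 at 26.2 ± 1.59 TPM, the lysosomal channel Mcoln1 at 11.6 ± 0.267 TPM and the importer Slc39a8 at 4.38 ± 0.377 TPM. Transferrin itself (Tf, named Trf in the annotation), Steap1, Steap2 and Lcn2, a carrier of iron bound to siderophores, were at 0.

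In storage, chaperones and export 4 of 9 were detected, near the 45.2% of nuclear protein-coding genes. The iron chaperones Pcbp1 and Pcbp2, which hand iron to ferritin and also bind RNA, had 1321 ± 21 and 929 ± 31.8 TPM. Pcbp1 exceeded Fth1 in 4 of 4 libraries, by 0.34 ± 0.02 in log2(TPM + 1). The heme exporter Flvcr1 had 50.6 ± 2.98 TPM and the transporter Abcg2 4.76 ± 0.214 TPM. Mitochondrial ferritin (Ftmt) and the copper oxidases that assist iron export, Cp, Heph and Hephl1, were at 0, as was ferroportin.

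Of the regulation list 6 of 12 were detected, also near the 45.2% of nuclear protein-coding genes. The RNA-binding proteins Zfp36l1 and Zfp36, which promote decay of AU-rich messenger RNAs, had 275 ± 27.3 and 54.1 ± 4.51 TPM. The oxygen-regulated factor Hif1a had 183 ± 6.41 TPM, and Nfe2l2, the factor NRF2 of the oxidative stress response, 34.5 ± 1.57 TPM. Hepcidin (Hamp and Hamp2), the hormone that makes cells withdraw ferroportin, was at 0, and so were Bmp6 and Hfe.

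Heme and iron-sulfur genes were mostly present. In heme synthesis and breakdown 11 of 13 were detected, among them Alad at 132 ± 4.92 TPM, Hmox2 at 125 ± 8.39 TPM and Urod at 53.4 ± 1.73 TPM. Alas2, the erythroid form of the first enzyme of heme synthesis, was at 0. Mitochondrial iron-sulfur cluster assembly had 17 of 18 detected, among them the chaperone Hspa9 at 1041 ± 16.0 TPM, the glutaredoxin Glrx5 at 261 ± 11.1 TPM and Isca2 at 95.4 ± 4.35 TPM. All 11 genes of cytosolic cluster assembly were detected, led by Nubp2 at 272 ± 7.18 TPM, Fam96a (Ciao2a in the annotation) at 175 ± 11.6 TPM, Nubp1 at 140 ± 3.88 TPM and Fam96b (Ciao2b) at 91.7 ± 8.59 TPM.

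**Figure D5:**
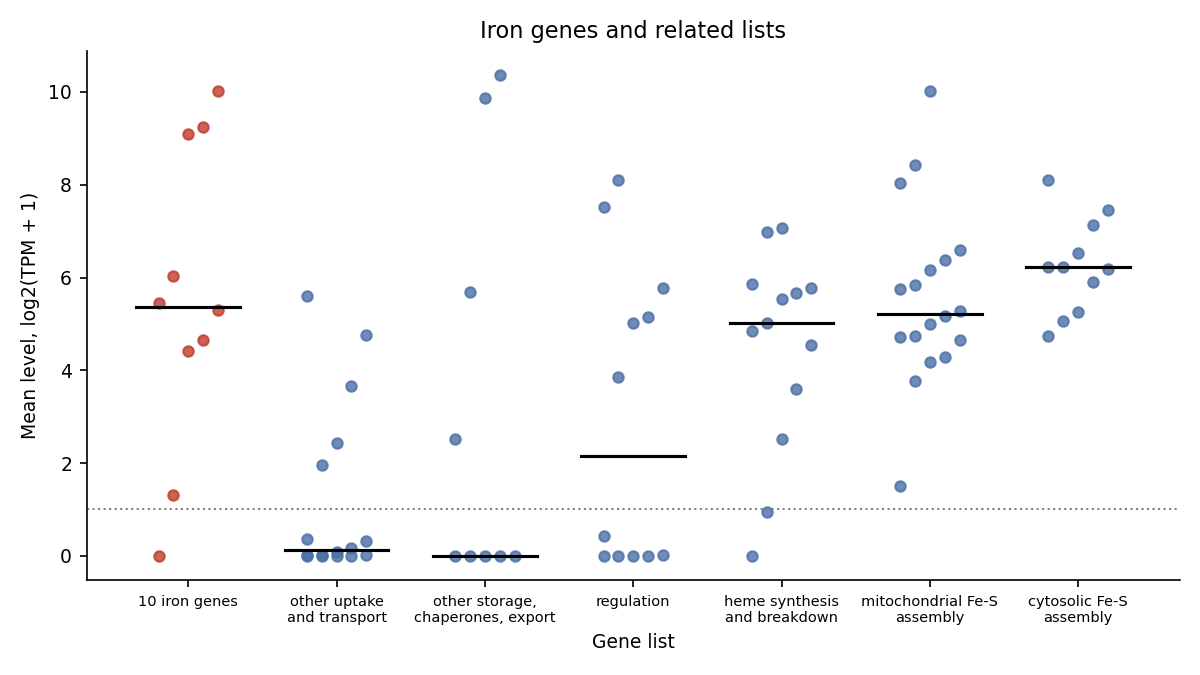
Mean level of the 10 genes (red) and of every matched gene of the 6 related lists (blue) on a log2(TPM + 1) axis, with the median of each list as a bar and a dotted line at 1 TPM. The mitochondrial and cytosolic iron-sulfur lists have medians of 36.3 and 73.6 TPM. The median over nuclear protein-coding genes at 1 TPM or more in every library, which leaves out undetected genes, was 32.7 TPM. The uptake and the storage and export lists have medians of 0.0974 and 0.00542 TPM and a few abundant genes each.

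The protein-coding genes whose levels over the 4 libraries were nearest to those of Tfrc, by root mean square difference in log2(TPM + 1), were Bop1 (0.06), Eno1 (0.07) and Etf1 (0.08). Those nearest to Fth1 were Eif4b (0.03), Eif3b (0.03) and Eif3d (0.03). The measure takes in the level as well as the pattern over libraries.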

How the data were processed

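RNA-seq covered 4 mouse T cell libraries. The authors deposited counts of read pairs per gene, made with featureCounts 1.4.6-p4 on exons with strand setting 2 and GENCODE M13, per the file headers. These name STAR alignments; its version and the treatment of multi-mapping reads are not given in the sources used here. Coordinates are on mm10, as the labels state. Whether total or polyA+ RNA was sequenced was not settled: the assay title says total, and the linked library protocol is named for polyA+ RNA.

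From the counts, TPM was computed with the deposited exonic lengths. Symbols came from GENCODE M21 (50376 of 50600 identifiers matched). The spread test used edgeR 4.0.16 (R 4.3.3) with TMM, filterByExpr and an intercept-only robust quasi-likelihood fit. It compared the residual dispersion of a gene (3 degrees of freedom) with the prior trend (13.9 degrees of freedom) by the upper tail of F, with Benjamini-Hochberg adjustment over 12285 genes at 0.05. The script was tested on simulated data. SDs of log2 CPM used a prior count of 2. Size factors and dispersion outliers from DESeq2 1.42.0 served as alternatives. Pairs of genes were compared by an exact two-sided sign-flip permutation test on log2(TPM + 1). Elements and shared 50-base windows were searched in GENCODE M21 transcripts. Python 3.11.15, numpy 2.4.6, pandas 2.3.3, scipy 1.17.1 and matplotlib 3.10.9 were used.

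Library totals lay between 46192242 and 63313389 read pairs. The limit for a gene at 0 was set at 3 counts, and intervals (Wilson, 95%) and limits cover counting error only. All 10 members are named, with the 4 most abundant genes of each related list, its defining genes at 0, partners of the fixed pairs, and the 3 genes nearest in level to Tfrc and to Fth1. Some genes set by this rule are not reported here. Genes outside this rule are said to be named after their values were seen. The members and lists were chosen with earlier results of these data known. Alternatives covered scaling, count filter, prior, test, detection floor, pseudocount, near-identical copies, the genes in the TPM total and each replicate left out.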

Additional observations from a re-analysis of the deposited data

Results flagged for a closer look

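In 35 genes (the 9 members with reads and the named related genes with reads) the highest or lowest library was set against the range of the 4 by Dixon's test, which by chance marks about 1 in 20. It marked 2. Flvcr1, the heme exporter, stood apart in replicate 4, at 55.0 TPM. Steap4 had 0.0393 TPM in replicate 1, from 2 read pairs, and 0 in the others. A gene with reads in only 1 library is always marked, so the rate of 1 in 20 does not apply to Steap4. No member was marked.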

How the results depend on the processing

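Over 25 results, 185 alternative values were computed. Of these, 177 kept their direction, stayed within the spread between libraries or, for counts of genes, stayed within a set ratio of the reported count. By that rule, small changes in the counts at the detection floor were taken as kept. A reversal was found in 0 cases, but only the 77 values for pairs of genes could reverse. Since all 4 libraries of a pair lay on the same side of 0, a new pseudocount or a left-out replicate could not turn it. With only nuclear protein-coding genes in the TPM total, the mean levels of 6 members moved by more than 1 SD, to 1107 TPM for Fth1, 642 for Ftl1, 68.4 for Aco1, 45.1 for Slc25a37, 40.7 for Ireb2 and 25.8 for Slc11a2. All of these are higher, because the total then holds fewer genes. Among the related genes, 2 passed the edgeR spread threshold with no count filter (Herc2 and Uros) and 1 was a DESeq2 dispersion outlier (Herc2), against 0 as reported. The share of all genes that passed without the filter is not given here, and the cause was not tested. The count of members past the threshold was 0 under all 8 alternatives, each replicate left out included. Members at the detection floor numbered 8 or 9 over its alternatives, and related genes 50 to 55. Differences that involve a gene near 0 depended on the pseudocount: 6.79 to 12.42 for Tfrc minus Slc40a1, 6.75 to 11.38 for Tfrc minus Tfr2 and 0.37 to 3.76 for Steap3 minus Steap4. Adding the counts of genes that share at least 50 windows with a member was chosen after the data were seen, and left all 10 mean levels within 1 SD. If reads that match several places were not counted, they are missing from the copies too, so neither this nor adding the annotated ferritin copies tests the effect of shared sequence. Libraries could not be paired between conditions because the 4 form 1 group. Steap3 rests on 68 to 234 read pairs per library, the fewest of the 9 members tested.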
